A study of Mus musculus with 12 samples.

Results

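Gene expression in ovaries of 6-month-old mice was compared after 24 h of culture with or without the Korean red ginseng saponin fraction (KRGSF). The 6 samples were chosen by their labels, 3 untreated and 3 KRGSF-treated, from the 12 samples of the series, and the other 6 are the untreated and KRGSF-treated ovaries of 12-month-old mice. All ovaries came from C57BL/6 females, an inbred laboratory strain, and were cultured in DMEM with fetal bovine serum. KRGSF was given at 10 mg/mL. The paper describes the controls as cultured without KRGSF, whereas the sample labels give DMSO for the controls and RGE for the treatment. One Affymetrix Mouse Gene ST array was run per sample, and each of its probe sets (several short probes to a transcript) gives a log2 value. For each age, pairs of ovaries were divided between the treatments, per the methods. Samples of the other groups were chosen for high RNA purity, which is not stated for the treated ovaries of the younger mice. Whether the 3 samples of a group come from different mice is not stated, and the p-values therefore reflect the spread among these samples, possibly a technical one.

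Red ginseng is steamed and dried ginseng root, and its saponins, the ginsenosides, are its best studied constituents. Plant extracts of this kind are often studied for their action on NRF2 (Nfe2l2), a transcription factor that is held in the cytosol by KEAP1 and, once released, binds antioxidant response elements in the promoters of genes for glutathione synthesis, quinone reduction and NADPH supply. The ovary holds oocytes within follicles of granulosa and theca cells, and corpora lutea that produce progesterone, together with stroma, vessels and immune cells. Culture of an explanted organ can by itself engage stress-responsive genes. Both the treated and the untreated ovaries were cultured here, and no uncultured ovary was measured.

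Markers of steroid-producing cells, granulosa cells and oocytes were read as follows. Star, which carries cholesterol into mitochondria, ranged from 9.23 to 9.53 on the log2 scale over the 6 arrays, and Inha, the inhibin alpha subunit of granulosa cells, from 6.40 to 7.04. Gdf9, a growth factor of oocytes, ranged from 4.31 to 4.90. Detection calls were not used here, so no probe set was called present or absent. Untreated replicate 2 stood apart from the other 6-month arrays. Its mean correlation with the other 11 arrays was 0.953 (0.967 to 0.973 for the other 6-month arrays), its values spread least (SD 1.47), and its median over the olfactory and vomeronasal receptor probe sets was 3.14, above the range of 2.63 to 2.88 on the other 5. For many gene lists, counts or medians are also given without it below, whereas most single genes are given with all arrays only.

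After 24 h of KRGSF, no probe set of 33793 differed between treated and untreated 6-month ovaries beyond adjustment for multiple testing. The lowest adjusted p of limma, a linear model that pools information on the spread over all probe sets, was 0.683 (Benjamini-Hochberg). At an unadjusted p under 0.05, 1765 probe sets passed, where 1689.65 would be called if nothing changed. Past 1.5-fold, the fold used in the paper, and with an unadjusted limma p below 0.05, 153 probe sets (0.453%) were higher and 314 (0.929%) were lower in treated ovaries. Of these, 61.4% of the higher and 72.6% of the lower were among the dimmer 50% of probe sets. Without untreated replicate 2, these counts were 229 higher and 213 lower, and without untreated replicate 1 they were 325 and 799, so the excess of lower probe sets turned with 1 array. The median log2 difference was -0.01 over all probe sets, 0.02 over the brighter and -0.04 over the dimmer 50%.

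In 12-month ovaries, the same criteria were met by 338 probe sets that were higher and 487 that were lower, and 3461 passed an unadjusted p under 0.05. Of the 153 higher at 6 months, 4 (2.61%) were also among the higher at 12 months, which are 1.18% of those. Of the 314 lower, 18 (5.73%) were also lower at 12 months, or 3.7% of those. Conversely, 9 were higher at 6 and lower at 12 months, and 3 were lower at 6 and higher at 12 months. Across 22180 genes, represented by their brightest probe set, the differences at both ages correlated with r = 0.184, over genes that share arrays and are not independent replicates.

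The genes with the widest differences were mostly dim. After provisional symbols, small RNAs, receptors of smell, pseudogenes and immune receptor segments were left out, 32 genes qualified as higher and 45 as lower. The rule for naming genes asked for a change past 1.5-fold and unadjusted p, with no overlap between arrays. The 10 widest of each are described. Of these 20, 14 were below the median brightness of all probe sets. As background, 66 of all 22180 genes were higher and 150 lower past 1.5-fold and unadjusted p, with or without overlap. Whatever the fold, every treated array lay above every untreated array for 4.68% of all genes and below for 4.66%.

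**Figure D1:**
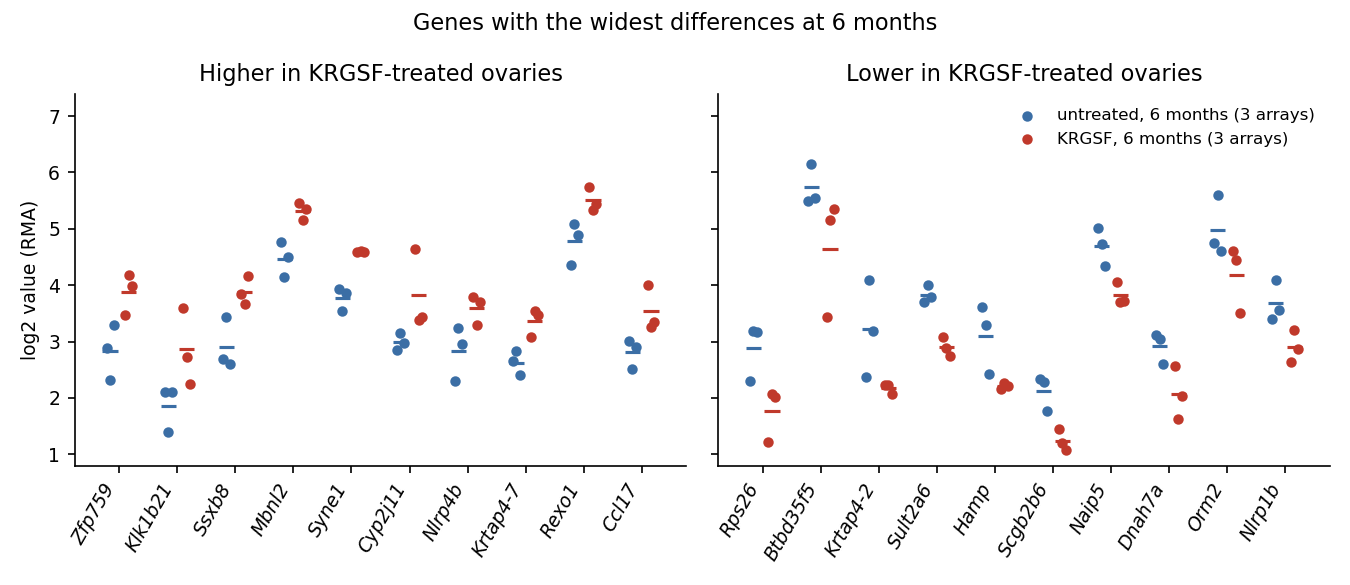
Log2 values of the 10 highest and 10 lowest named genes on the 3 untreated (blue) and 3 KRGSF-treated (red) 6-month arrays, with points for arrays and lines for group means. No gene has overlapping groups, which the rule required, and single arrays stand apart within Cyp2j11, Btbd35f5 and Krtap4-2.

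Among the brighter genes that were higher was Mbnl2, a muscleblind-like regulator of splicing. Its untreated values were 4.76, 4.15 and 4.49, and its treated values were 5.45, 5.15 and 5.35, a log2 difference of 0.85 (SE 0.20). Syne1, which encodes nesprin-1, a spectrin-repeat protein that links the nucleus to the cytoskeleton, read 3.93, 3.54 and 3.86 in untreated and 4.59, 4.61 and 4.59 in treated ovaries (0.82, SE 0.16). The treated arrays of Syne1 lay within 0.02 of each other. Rexo1, an RNA exonuclease family member, read 4.36, 5.09 and 4.88 untreated and 5.75, 5.34 and 5.45 treated (0.73, SE 0.23). Its groups were apart by the gap between 5.09 and 5.34.

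The other 7 genes that were higher were dimmer. Zfp759, a zinc finger protein gene, differed most, by 1.04 (SE 0.29). Klk1b21, a member of the tandem kallikrein protease family, differed by 0.99 (SE 0.28), and Ssxb8 of the SSX family by 0.98 (SE 0.28). Ccl17, a chemokine that attracts T cells through CCR4, read 3.01, 2.52 and 2.91 untreated and 4.01, 3.26 and 3.36 treated (0.73, SE 0.25). Cyp2j11, a cytochrome P450, differed by 0.82 (SE 0.29) with all arrays, but 1 treated array at 4.65 stood above the others at 3.38 and 3.43, and without it the difference was 0.41. Nlrp4b, of the NLR family, differed by 0.76 (SE 0.26) and by 0.50 without untreated replicate 1. Klk1b21 differed by 0.62 without treated replicate 1. The hair keratin-associated gene Krtap4-7 differed by 0.74 (SE 0.17).

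The 10 lower genes included Naip5, Nlrp1b, Orm2 and Hamp, whereas Nlrp4b and Ccl17 were among the 10 higher. Naip5, a receptor for bacterial flagellin that engages the NLRC4 inflammasome, read 5.02, 4.73 and 4.34 untreated and 4.07, 3.70 and 3.72 treated, a difference of -0.87 (SE 0.19). Nlrp1b, the inflammasome sensor of anthrax lethal toxin, read 3.40, 4.10 and 3.56 untreated and 2.63, 3.21 and 2.87 treated (-0.78, SE 0.24). Both genes have close relatives in tandem, so their values on short probes are uncertain. Orm2, an acute phase plasma protein, differed by -0.80 (SE 0.33) and by -0.50 without untreated replicate 2. Its difference was -0.46 without treated replicate 3. Hamp, the iron-regulating hormone hepcidin, read 3.61, 3.29 and 2.42 untreated and 2.15, 2.27 and 2.22 treated (-0.89, SE 0.41).

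The lowest of the named genes was Rps26, a protein of the small ribosomal subunit, at 2.30, 3.19 and 3.17 untreated and 1.22, 2.06 and 2.01 treated (-1.12, SE 0.26). Rps26 was dim on this probe set and has processed copies elsewhere in the genome, so the value is uncertain. Sult2a6, a hydroxysteroid sulfotransferase, read 3.71, 4.01 and 3.79 untreated and 3.09, 2.88 and 2.75 treated (-0.93, SE 0.19), and its groups lay apart by more than either spread. Btbd35f5, of an X-linked multicopy family, differed by -1.09 (SE 0.40) and by -0.48 without treated replicate 1. Krtap4-2 differed by -1.03 (SE 0.32) and by -0.60 without untreated replicate 2, so the paralogs Krtap4-7 and Krtap4-2 differed in opposite directions. Scgb2b6, a secretoglobin, and Dnah7a, an axonemal dynein heavy chain, differed by -0.89 (SE 0.30) and -0.84 (SE 0.32). None of these 20 genes passed adjustment in the fit or in any alternative, and none changed direction.

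NRF2 target genes were slightly higher as a group in treated 6-month ovaries, led by the glutathione transferase gene Gsta3. Of 28 measured members of a list of 32, 23 had a higher mean (49.7% of all genes did), with a median log2 difference of 0.18. Of the members, 3 were higher at an unadjusted p under 0.05 (1.99% of all genes) and 0 were lower (2.53%), and no member passed adjustment. Without untreated replicate 2, 19 of 28 were higher with a median of 0.08, and without untreated replicate 1 all 28 were higher with a median of 0.34. The lists were chosen with earlier results of these data known, so these counts are descriptions.

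Gsta3, which conjugates glutathione to electrophiles, read 4.62, 3.71 and 4.06 untreated and 5.04, 4.80 and 4.64 treated. The groups were barely apart, between 4.62 and 4.64, and differed by 0.69 (SE 0.20). Untreated replicate 2 held the lowest value, 3.71, and adds to this difference. The aldehyde oxidase gene Aox1 read 5.15, 5.27 and 5.12 untreated and 5.52, 5.62 and 5.51 treated (0.37, SE 0.15), with both groups tight. Hmox1, heme oxygenase 1, read 8.82, 8.08 and 8.44 untreated and 8.78, 8.87 and 8.83 treated (0.38, SE 0.18), and its groups overlapped. Sqstm1, the autophagy adaptor p62, differed by 0.31 (SE 0.17).

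Nqo1, Gclm, Slc7a11 and Akr1b8 had differences of -0.07 to 0.19 at 6 months and wider ones at 12 months. Nqo1, quinone reductase, read 6.07, 4.87 and 5.32 untreated and 5.80, 5.55 and 5.08 treated, a difference of 0.06 with a 95% interval from -0.54 to 0.65. Gclm, the modifier subunit of glutamate-cysteine ligase, differed by 0.11 (-0.28 to 0.51), and Slc7a11, the cystine importer, by 0.19 (-0.20 to 0.59). Both intervals leave room for a modest increase or none. At 12 months the differences were 1.13 for Nqo1, 0.86 for Gclm, 0.93 for Slc7a11 and 0.67 for the aldo-keto reductase gene Akr1b8, which differed by -0.07 at 6 months. The signed log2 difference was lower at 6 than at 12 months for 22 of the 28 targets. Tested as an interaction, the effect at 6 minus that at 12 months was -1.08 for Nqo1, -0.74 for Gclm, -0.74 for Slc7a11 and -0.74 for Akr1b8, each at an unadjusted p under 0.05 (4.89% of all genes), but no interaction of an NRF2 target passed adjustment (limma, lowest adjusted p = 0.862). Gsta3 differed by about as much at 12 months (0.61) as at 6 months.

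**Figure D2:**
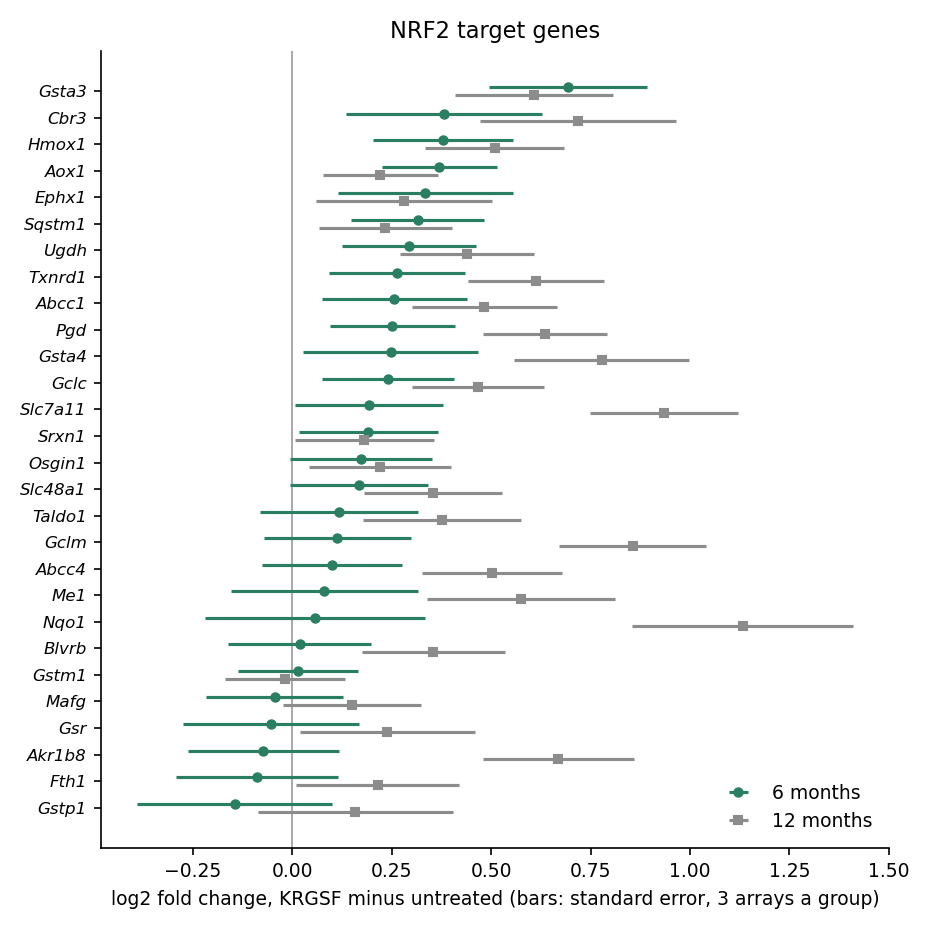
Log2 fold change of 28 NRF2 target genes after KRGSF at 6 months (green) and at 12 months (grey), KRGSF-treated minus untreated, with bars for the standard error and 3 arrays a group. Gsta3 is at 0.69 and 0.61, whereas Nqo1 is at 0.06 at 6 and 1.13 at 12 months.

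The promoters of Gsta3 and Gclm are shown because Gsta3 had the highest difference of the list at 6 months and Gclm one near 0, while both hold the core of an antioxidant response element. In RefSeq on GRCm38.p6, the stretches run from 250 bases before to 50 after the transcription start, at chr1:21240335-21240634 on the plus strand for Gsta3 and at chr3:122245307-122245606 on the plus strand for Gclm, and capitals mark the match to the core.
Gsta3: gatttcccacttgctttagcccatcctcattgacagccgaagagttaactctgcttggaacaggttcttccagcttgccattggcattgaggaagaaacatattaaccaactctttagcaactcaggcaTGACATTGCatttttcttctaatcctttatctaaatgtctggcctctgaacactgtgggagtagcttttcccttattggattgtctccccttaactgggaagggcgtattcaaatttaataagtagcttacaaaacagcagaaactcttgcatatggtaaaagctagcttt
Gclm: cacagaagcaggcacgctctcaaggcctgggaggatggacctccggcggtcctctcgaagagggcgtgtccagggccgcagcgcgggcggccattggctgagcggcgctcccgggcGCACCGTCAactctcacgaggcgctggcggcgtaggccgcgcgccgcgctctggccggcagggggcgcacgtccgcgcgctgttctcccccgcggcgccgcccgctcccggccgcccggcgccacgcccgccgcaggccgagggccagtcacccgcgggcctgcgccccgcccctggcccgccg

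The core searched was TGACNNNGC on both strands, which can share its first bases with a binding site of AP-1. It begins 121 bases before the start in Gsta3, on the plus strand, and 134 bases before in Gclm, where the match is on the minus strand. Of 22 NRF2 targets with a promoter in the table, 9 (40.9%) held it, as did 14% of all 27025 genes and 7 of 20 (35%) immediate early genes. A match is a description of the letters, not a binding site.

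The 25 measured genes that the study named for oxidative stress, the NLRP3 inflammasome or 12-month ovaries differed little at 6 months. Their log2 differences ranged from -0.39 to 0.38, 9 were higher, and 0 passed even an unadjusted p under 0.05. Idh1, the cytosolic NADP-dependent isocitrate dehydrogenase that supplies NADPH, read 8.62, 7.59 and 8.64 untreated and 8.44, 7.81 and 8.17 treated (-0.14, SE 0.26, against 0.69 at 12 months). Nfe2l2 itself differed by -0.08 (SE 0.19). Catalase, Cat, read 8.40, 7.74 and 7.89 untreated and 8.17, 8.41 and 8.41 treated (0.32, SE 0.18), and the groups overlapped.

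Of the inflammasome list, 9 of 18 members were higher and the median was -0.01 (12 of 18 without untreated replicate 1 and 7 of 18 without untreated replicate 2). Nlrp3, the sensor, differed by 0.07 (SE 0.17) at 6 and -0.48 at 12 months, Pycard, its adaptor ASC, by -0.24 (SE 0.15), Casp1 by 0.10 (SE 0.22) and Il1b by -0.19 (SE 0.24). Ptgs2, the inducible prostaglandin synthase COX2, read 9.06, 8.55 and 9.08 untreated and 8.81, 9.53 and 9.44 treated (0.37, SE 0.22). Of the 25 genes, 21 had the higher signed log2 difference at 12 months, which is not a measure of size. Many of them had been selected at that age, so that count is not independent of their choice. Opposite signs at the 2 ages were read for Gnpnat1, which makes an acetylglucosamine phosphate for protein glycosylation and differed by -0.39 (SE 0.21) at 6 and 0.78 at 12 months, and Trp53inp1, a p53-induced autophagy gene, which differed by -0.13 (SE 0.18) and 0.92. The lowest adjusted p of the interaction among these genes was 0.862 (limma).

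Subunits of the NADPH oxidase, the superoxide-producing enzyme of phagocytes, did not move together. Rac2, the small GTPase of the complex in blood cells, read 4.89, 5.28 and 5.18 untreated and 4.14, 4.60 and 4.69 treated (-0.64, SE 0.20). The cytosolic subunit gene Ncf4 read 3.83, 3.93 and 4.12 untreated and 4.24, 4.22 and 4.61 treated (0.40, SE 0.16), the other way. Cybb, the catalytic subunit, differed by -0.25 (SE 0.17), and 4 of 11 members were higher, with a median of -0.04 that was -0.13 without untreated replicate 2. Of the list of antioxidant enzymes, 12 of 25 were higher with a median of -0.01. That count was 18 (median 0.13) without untreated replicate 1 and 9 (median -0.04) without untreated replicate 2.

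Immediate early genes, the transcription factors and phosphatases that cells switch on within minutes of a stimulus, were higher in treated ovaries in 23 of 25 cases, with a median difference of 0.14. Of these, 5 were higher at an unadjusted p under 0.05 (1.99% of all genes), and the same 5 lay above the untreated arrays without overlap (4.68% of all genes), against 0 below (4.66%). Fos, the AP-1 subunit, read 5.68, 5.26 and 5.66 untreated and 6.10, 5.84 and 5.94 treated (0.43, SE 0.16). Nr4a1, the orphan nuclear receptor NUR77, which gonadotropins induce in follicles, read 6.46, 6.04 and 6.49 untreated and 7.02, 6.69 and 6.71 treated (0.48, SE 0.21). Untreated replicate 2 was lowest for both genes, and the treated arrays also lay above the other untreated arrays.

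Zfp36, the tristetraprolin that destabilises cytokine mRNAs, read 6.55, 6.25 and 6.68 untreated and 7.04, 6.81 and 6.81 treated (0.39, SE 0.16). Myc read 7.0, 6.60 and 6.88 untreated and 7.26, 7.10 and 7.20 treated (0.36, SE 0.16), and Maff, a small MAF protein, differed by 0.36 (SE 0.16). The exceptions were Klf4 and Klf2, at -0.01 (SE 0.16) and -0.13 (SE 0.18). No member passed adjustment. Without untreated replicate 2, 20 of 25 were higher with a median of 0.11, and the leave-one-out medians ranged from 0.11 to 0.24. At 12 months 17 of 25 were higher with a median of 0.09, and Fos differed by -0.11. The interaction for Fos was 0.53 (SE 0.22), which did not pass adjustment.

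**Figure D3:**
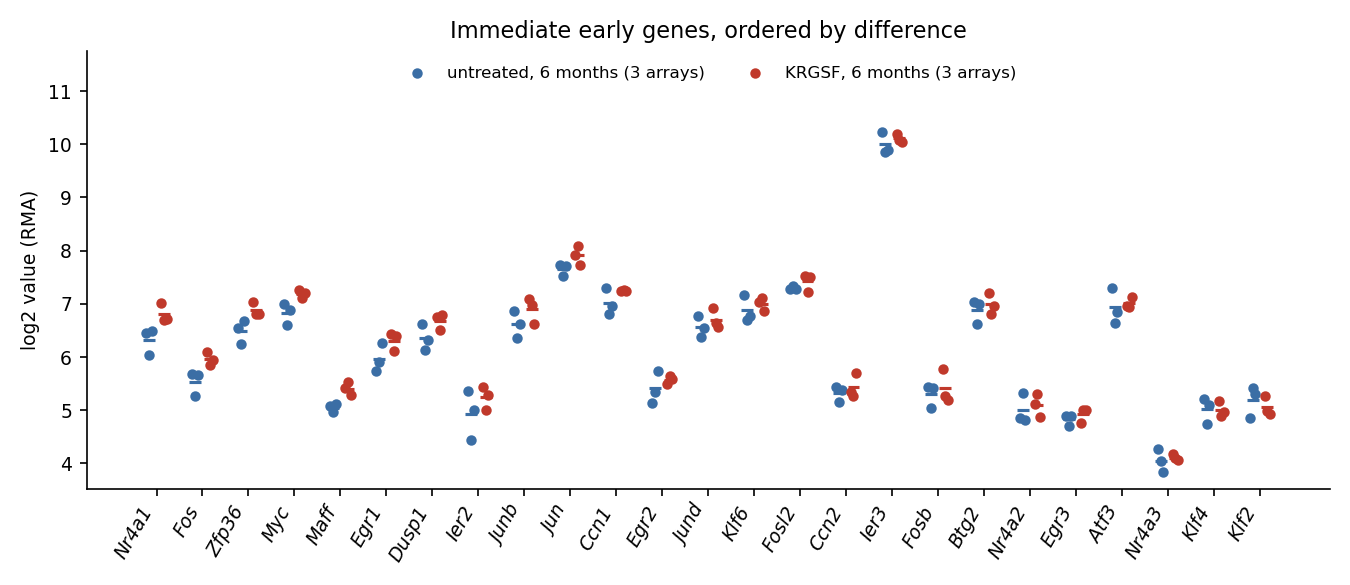
Log2 values of 25 immediate early genes on the 3 untreated (blue) and 3 KRGSF-treated (red) 6-month arrays, ordered by the difference of the group means (lines). The 5 genes at the left, Nr4a1, Fos, Zfp36, Myc and Maff, have no overlap between groups, with differences from 0.36 to 0.48.

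Of 20 immediate early genes with a promoter, 3 (15%) held the cAMP response element TGACGTCA, searched on both strands, as did 2.03% of all genes, and these were Maff, Dusp1 and Btg2. The differences of the latter were 0.32 (SE 0.18) for Dusp1, a MAP kinase phosphatase, and 0.11 (SE 0.17) for the antiproliferative gene Btg2.

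Other stress lists leaned the same way by small amounts that depended on untreated replicate 2. Heat shock proteins were higher in 12 of 15 cases with a median of 0.19, and in 8 of 15 with a median of 0.12 without that array. The small heat shock protein Cryab read 7.26, 7.10 and 7.04 untreated and 7.38, 7.59 and 7.43 treated (0.34, SE 0.15), without overlap. Hspd1, the mitochondrial chaperonin, and Chordc1, a cochaperone of HSP90, differed by -0.14 (SE 0.17) and -0.10 (SE 0.22), and by 0.44 and 0.74 at 12 months. Both are among the 4 of 12 heat shock genes (33.3%) whose promoter held a heat shock element, searched on both strands, as did 0.662% of all genes. Genes of the unfolded protein and integrated stress response were higher in 19 of 23 cases (median 0.12, and 0.01 without untreated replicate 2), and genes of glycolysis and the hypoxia response in 20 of 24 (median 0.10, and -0.05 without it).

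Of 16 p53 targets, 11 were higher with a median of 0.07, which was 0.17 without untreated replicate 1 and 0.03, with 9 higher, without untreated replicate 2. Aen, a p53-induced nuclease, read 4.40, 4.38 and 4.39 untreated and 4.88, 4.94 and 4.78 treated (0.48, SE 0.15). Perp, a desmosomal p53 effector, read 4.61, 4.58 and 4.67 untreated and 5.25, 4.96 and 5.0 treated (0.45, SE 0.16), and Plk2 differed by 0.46 (SE 0.21). Cdkn1a, the cell cycle inhibitor p21, differed by 0.10 (SE 0.15), and Mdm2, the ligase that degrades p53, by 0.06 (SE 0.16).

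Small nucleolar RNAs, which guide the chemical modification of ribosomal and spliceosomal RNA and are mostly released from introns of host genes, were higher in treated 6-month ovaries and lower in treated 12-month ovaries. Of 73 with a probe set, 69 were higher at 6 months with a median log2 difference of 0.26, and 9 were higher at 12 months with a median of -0.27 (46.6% of all genes were higher at 12 months). In all, 61 were higher at 6 and lower at 12 months, and 1 was the reverse. The signed log2 difference was higher at 6 months for 70, which for the 61 follows from their signs. The interaction had an unadjusted p under 0.05 for 25, all with the higher signed difference at 6 months (2.71% of all genes), and none passed adjustment. Their probes also match the unspliced host intron, so the mature RNA and its precursor cannot be told apart. Since an organ was measured, a change in RNA per cell cannot be told from a change in the share of the cells that hold it.

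The shift was made of many small differences. At 6 months 6 of 73 were higher at an unadjusted p under 0.05 (1.99% of all genes) and 13 without overlap (4.68%). By the same measures 0 were lower (2.53% and 4.66% of all genes), and the differences ranged from -0.25 to 0.78 with a median SE of 0.22. The median of the list on each array was 8.28, 7.75 and 8.01 in untreated and 8.77, 8.14 and 8.25 in treated 6-month ovaries, so the groups overlapped as a whole. Treated replicate 1 was the highest of all arrays. Without it, 62 of 73 were higher with a median of 0.14, and without untreated replicate 2, 69 were higher with a median of 0.18.

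Both classes had the same directions. The box C/D RNAs, which guide methylation, were higher at 6 months in 44 of 47 cases (median 0.26, and -0.25 at 12 months), and the box H/ACA RNAs, which guide pseudouridylation, in 25 of 26 (median 0.31, and -0.29). All 5 Cajal body RNAs were higher at 6 months (median 0.16) and lower at 12 months (median -0.29). Host genes of small nucleolar RNAs were higher in 11 of 17 cases, with medians of 0.07 at 6 months (-0.01 without untreated replicate 2) and 0.06 at 12 months. This split into classes was made after the values were seen. At 12 months, where treated replicate 2 stood apart with a mean correlation of 0.958, the median was -0.10 and 16 of 73 were higher without it.

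Snord88a had the largest interaction of the 73 (1.49), at 7.56, 7.11 and 7.55 untreated and 8.88, 7.91 and 7.72 treated (0.76, SE 0.32) and at -0.73 at 12 months. Snord19 read 4.65, 4.18 and 4.43 untreated and 5.37, 4.68 and 5.23 treated (0.67, SE 0.18), and differed by 0.37 at 12 months, against the trend of the class. Snora28 read 8.68, 8.40 and 8.12 untreated and 9.39, 8.74 and 8.57 treated (0.50, SE 0.22), and differed by -0.43 at 12 months. Snord49b, one of the bright members, read 10.73, 10.66 and 10.67 untreated and 11.16, 10.78 and 10.82 treated (0.24, SE 0.20), without overlap.

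**Figure D4:**
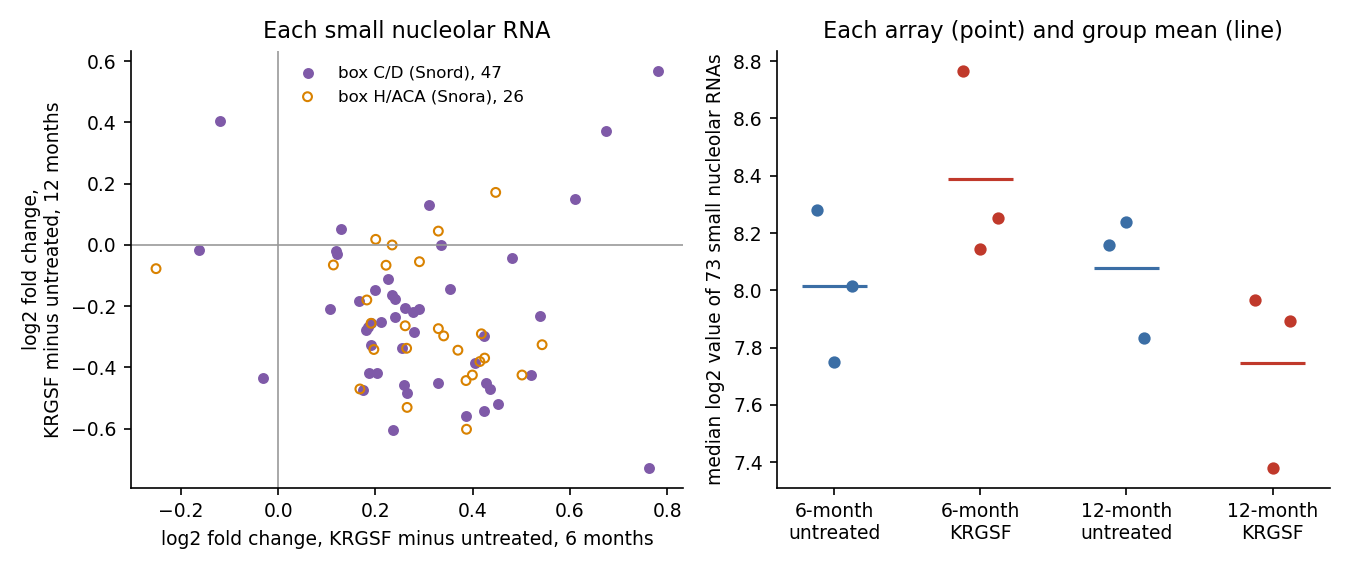
Left, log2 fold change of each of 73 small nucleolar RNAs after KRGSF at 6 months (horizontal) and 12 months (vertical), box C/D filled and box H/ACA open. Right, the median log2 value of the 73 on each array, with lines for group means. The lower right quadrant holds 61 of the 73, and treated replicate 1 of the 6-month ovaries is at 8.77.

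Of 483 microRNA genes, 227 were higher with a median of -0.01 (271 and 0.04 without untreated replicate 2), and Mir335 had the lowest adjusted p of the interaction between treatment and age. Probe sets for microRNA genes read the precursor and its surroundings, not the mature RNA alone. Mir335 read 2.19, 3.03 and 2.42 in untreated and 3.47, 3.27 and 3.72 in treated 6-month ovaries (0.94, SE 0.22). In 12-month ovaries it read 3.73, 4.20 and 3.73 untreated and 1.88, 2.24 and 1.90 treated (-1.88). The groups were apart at each age and in opposite directions, and the interaction, 2.82 (SE 0.31), passed adjustment over all probe sets (limma, adjusted p = 0.00516). Its adjusted p ranged from 0.000431 to 0.0362 over the alternatives that kept dim probe sets in the fit. Mir335 was among the dimmer 50% and left out by the filter on these.

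Mir335 lies within Mest, an imprinted hydrolase gene. Mest read 5.41, 5.11 and 5.26 untreated and 5.86, 5.53 and 5.84 treated at 6 months (0.48, SE 0.18), without overlap. At 12 months Mest differed by 0.51, and its interaction was -0.03, so the host gene was higher at both ages whereas Mir335 was not.

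Of 483 microRNA genes, 420 have a mature sequence in the RefSeq table for GRCm38.p6. Mature forms of Mir335, Mir30a, Mir30e, Mir186 and Mir3090 are shown to let their seeds, bases 2 to 8 in capitals, be compared, with miR-335-5p at chr6:30741314-30741336 on the plus strand.
miR-335-5p: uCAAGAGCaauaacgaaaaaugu
miR-335-3p: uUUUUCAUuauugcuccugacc
miR-30a-5p: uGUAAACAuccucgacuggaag
miR-30e-5p: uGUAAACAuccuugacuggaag
miR-30a-3p: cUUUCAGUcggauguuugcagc
miR-30e-3p: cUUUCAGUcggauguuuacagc
miR-186-5p: cAAAGAAUucuccuuuugggcu
miR-186-3p: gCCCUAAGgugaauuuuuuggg
miR-3090-5p: gUCUGGGUggggccugagauc
miR-3090-3p: uCCCAGGUgacacccugacuca

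Mir30a and Mir30e share their seeds, and from miR-30a to miR-30e the 5p arm differs by C13U and the 3p arm by G18A, counted from the 5′ end. The genes differed in opposite directions. Mir30a read 1.70, 1.58 and 1.56 untreated and 2.31, 1.99 and 2.49 treated (0.65, SE 0.18), whereas Mir30e read 2.95, 3.11 and 2.61 untreated and 2.40, 1.88 and 2.32 treated (-0.69, SE 0.23). Both were among the dimmest values on the arrays, and neither pair of groups overlapped.

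Mir3090 was the lowest microRNA gene by its moderated statistic, at 4.12, 4.60 and 4.06 untreated and 3.55, 3.25 and 3.17 treated (-0.94, SE 0.18). Mir186 read 4.33, 3.83 and 3.94 untreated and 3.23, 3.42 and 2.44 treated (-1.0, SE 0.33), and differed by 0.68 at 12 months. Its values stood apart between the groups, as did those of Mir3090. Mir122 differed by -0.70 (SE 0.20). Of the 483, 15 were higher and 14 lower at an unadjusted p under 0.05, near the shares of all genes (1.99% and 2.53%). With 1.5-fold as well these were 8 and 6 of the 483, beside 66 and 150 of all 22180 genes. No microRNA gene passed adjustment at 6 months.

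**Figure D5:**
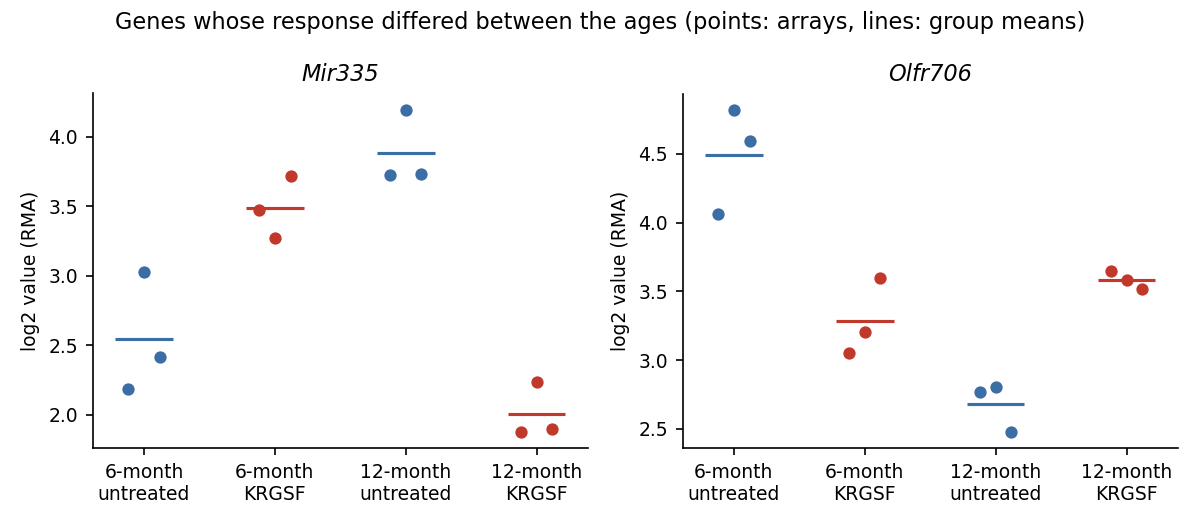
Log2 values of Mir335 and Olfr706 on the 12 arrays by group, with points for arrays and lines for group means. Mir335 is higher with KRGSF at 6 months and lower at 12 months, and Olfr706 is the reverse, with interactions of 2.82 and -2.11.

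Olfr706, an olfactory receptor gene, was the other gene with an interaction past adjustment (-2.11, SE 0.28, adjusted p = 0.0341 by limma). It read 4.06, 4.82 and 4.59 in untreated and 3.05, 3.21 and 3.60 in treated 6-month ovaries (-1.21, SE 0.20), and 2.77, 2.80 and 2.48 untreated and 3.64, 3.58 and 3.52 treated at 12 months (0.90). Unlike Mir335, it did not pass in 10 of the 12 fits that leave out 1 array. Olfr706 has close relatives, so the value on short probes is uncertain.

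Olfactory and vomeronasal receptor genes, which serve the sense of smell and were read here as dim probe sets, were lower as classes. Of 1105 olfactory receptors, 350 were higher with a median of -0.10, and of 289 vomeronasal receptors, 99 with a median of -0.11. At an unadjusted p under 0.05, 21 olfactory receptors were higher (1.99% of all genes) and 91 lower (2.53%), and 1 vomeronasal receptor was higher and 19 lower. The dimmer 50% of all probe sets also leaned lower, with 41.6% higher and a median of -0.04. Of these 16897, 344 were higher and 714 lower at that p. Past 1.5-fold as well, 63 of the 314 lower probe sets (0.929% of all) and 5 of the 153 higher (0.453%) belonged to these classes. Untreated replicate 2 had the highest median over these receptors, and without it 501 of 1105 olfactory receptors were higher and the median was -0.03, and 139 of 289 vomeronasal receptors were higher with a median of -0.01. The lowest besides Olfr706 were Olfr770 (-0.91, SE 0.17), Olfr825 (-1.04, SE 0.22) and Vmn1r79 (-1.14, SE 0.29).

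Further genes had opposite differences at the 2 ages without passing adjustment in the interaction. Prps1l1, a phosphoribosyl pyrophosphate synthetase, was higher at 6 months by 0.61 (SE 0.17) and differed by -0.69 at 12 months, and Crabp1, a retinoic acid binding protein, by 0.50 (SE 0.17) and -0.52. Naip5, Zfp617, a zinc finger protein gene, and Zxdb, an X-linked zinc finger gene, ran the other way, at -0.87, -0.42 and -0.37 at 6 months and 0.35, 0.93 and 0.86 at 12 months. Wfdc2, an epithelial secreted protein of the reproductive tract, read 4.47, 4.19 and 4.38 untreated and 4.58, 4.73 and 5.01 treated (0.43, SE 0.16), and differed by -0.49 at 12 months.

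Of 16 granulosa cell markers, 9 were higher with a median of 0.08. Inhba, which encodes the activin and inhibin beta A subunit, read 4.98, 4.04 and 5.20 untreated and 5.22, 5.74 and 5.46 treated (0.73, SE 0.26), its groups apart by the gap between 5.20 and 5.22. Much of its difference came from untreated replicate 2, at 4.04. Amh, anti-Müllerian hormone of small growing follicles, read 4.43, 4.26 and 4.25 untreated and 4.90, 4.66 and 4.61 treated (0.41, SE 0.16), and differed by -0.11 at 12 months. Both genes were higher on every treated array, and neither passed adjustment.

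Oocyte markers were higher in 16 of 24 cases with a median of 0.11, with none at an unadjusted p under 0.05, and they were higher in 4 of 24 at 12 months with a median of -0.17. The leave-one-out medians at 6 months ranged from 0.05 to 0.19. The linker histone gene H1f8 differed by 0.36 (SE 0.18). At 12 months, the median was 0.06 without the 12-month untreated replicate 2, so that direction rested on 1 array.

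Steroid synthesis genes were higher in 5 of 12 cases with a median of -0.04, and in 3 of 12 with a median of -0.17 without untreated replicate 2. The count was 6 (median 0.05) without untreated replicate 3 and 7 (median 0.06) without treated replicate 2, so the sign of this median rested on single arrays. Star read 9.48, 9.42 and 9.53 untreated and 9.23, 9.33 and 9.37 treated (-0.17, SE 0.18), a small difference without overlap. Akr1c18, which breaks down progesterone in regressing corpora lutea, read 8.21, 8.71 and 8.85 untreated and 6.57, 8.0 and 8.14 treated, also without overlap. Its difference of -1.02 carried an SE of 0.80 in the fit over all 4 groups. Luteal markers were higher in 3 of 8 cases with a median of -0.10, which ranged from -0.30 without untreated replicate 2 to 0.12 without untreated replicate 3, so no direction held. Of 7 theca cell markers, 5 were higher at 6 months with a median of 0.10, which ranged from 0.03 to 0.25 when 1 array was left out. Against that direction, Cyp17a1, the androgen-forming enzyme of theca cells, differed by -0.16 (SE 0.15) at 6 and -0.74 at 12 months.

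Of 15 endothelial markers, 8 were higher, and 5 without untreated replicate 2. Kdr, the VEGF receptor 2, read 6.91, 6.89 and 6.85 untreated and 6.38, 6.57 and 6.27 treated (-0.48, SE 0.20), and Tek, the angiopoietin receptor, differed by -0.53 (SE 0.23). Flt1, the VEGF receptor 1, and Cldn5, the endothelial claudin, differed by 0.53 (SE 0.22) and 0.50 (SE 0.17). Smooth muscle and pericyte markers were higher in 9 of 11 cases (median 0.15), 4 of them without overlap (4.68% of all genes), among them Tagln (0.40, SE 0.20) and Acta2 (0.30, SE 0.19).

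Of the immune cell markers, 5 of 15 were higher for macrophages, 6 of 14 for neutrophils and 4 of 17 for lymphocytes, with medians of -0.11, -0.13 and -0.11, beside -0.10 and -0.11 for the receptor classes, whose part in this was not tested. Without untreated replicate 2 the neutrophil and lymphocyte medians were -0.03 and -0.03 (7 of 17 lymphocyte markers higher). Without untreated replicate 1 the macrophage median was -0.03, so the size of these medians rested on single arrays. Their sign did not change when any 1 of the 6-month arrays was left out. The lowest medians were then -0.19 for macrophages, -0.14 for neutrophils and -0.19 for lymphocytes. Cd68, a lysosomal protein of macrophages, read 6.71, 5.88 and 6.31 untreated and 6.68, 6.82 and 6.80 treated (0.47, SE 0.19). Its groups overlapped, and untreated replicate 2 was lowest. The neutrophil collagenase gene Mmp8 differed by -0.46 (SE 0.16), whereas the highest neutrophil marker differed by 0.60. At an unadjusted p under 0.05, 1 neutrophil marker was higher and 1 lower. For macrophages and for lymphocytes 1 marker was higher and 0 were lower (1.99% and 2.53% of all genes). Of 21 interferon response genes, 10 were higher, and Ifit3, which restrains viral RNA, read 5.14, 5.37 and 5.29 untreated and 4.77, 4.64 and 4.91 treated (-0.49, SE 0.17).

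Lipid genes differed in both directions within each list. Nr1h3, the oxysterol receptor LXR alpha, read 4.33, 3.97 and 4.25 untreated and 4.60, 4.92 and 4.43 treated (0.47, SE 0.16), and differed by -0.25 at 12 months. Its targets Pltp, the phospholipid transfer protein, and Abcg1, a sterol exporter, differed by 0.48 (SE 0.20) and -0.50 (SE 0.18). In the list of LXR targets, 5 of 12 were higher with a median of -0.04, which ranged from -0.05 to 0.07 when 1 array was left out. Sc5d, a late enzyme of cholesterol synthesis, read 6.82, 6.68 and 6.86 untreated and 6.48, 6.49 and 6.44 treated (-0.32, SE 0.14), and 9 of 19 genes of its list were higher.

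Among genes with a mean log2 value over 6, 3 had an unadjusted p under 0.01 and are named after their values were seen. Provisional symbols, small RNAs, receptors of smell and pseudogenes were left out. The size of this set is not given here, so no share stands beside the 3. Of the brighter 50% of probe sets, 707 of 16896 passed an unadjusted limma p under 0.05, where 844.8 would be called if nothing changed. None of the 3 genes had overlapping groups. Elovl6, which elongates palmitate to stearate, read 6.58, 6.30 and 6.49 untreated and 6.05, 5.43 and 6.05 treated (-0.61, SE 0.19), and differed by 0.31 at 12 months. Pcbp1, a poly(C)-binding regulator of mRNA, read 6.37, 5.64 and 6.13 untreated and 6.87, 6.62 and 6.50 treated (0.62, SE 0.18), with untreated replicate 2 lowest. Tut7, which uridylates RNA and microRNA precursors, read 5.89, 5.65 and 5.71 untreated and 6.30, 6.06 and 6.36 treated (0.49, SE 0.15).

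Among housekeeping genes, ribosomal protein genes were higher in 48 of 67 cases with a median of 0.13, which became -0.03 with 28 of 67 higher without untreated replicate 2. Rps19 differed by 0.41 (SE 0.17). Respiratory chain and ATP synthase genes were higher in 36 of 80 cases with a median of -0.02. That count was 63 (median 0.13) without untreated replicate 1 and 19 (median -0.14) without untreated replicate 2, so no direction held. Cell cycle genes were higher in 15 of 31 cases with a median of -0.01.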

How the data were processed

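RNA of 12 cultured ovary samples, 3 in each of 4 groups by age and treatment, was hybridised to Affymetrix Mouse Gene ST arrays. The deposited values are log2, from RMA by the authors (background correction, quantile normalization and probe summary) in Affymetrix Expression Console 1.4, per the submitters' processing notes. Which arrays were normalized together and the genome build are not given in the sources used here. Precision is limited by how many arrays there are.

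Of 33793 probe sets, 23521 have 1 gene symbol in the platform annotation, 1820 have several and were not named, and 8452 are unnamed here. By identifier, 23328 matched a RefSeq table, which changed 0 symbols. Genes with several probe sets were represented by the brightest in lists and counts of genes.

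The values were fitted with limma 3.58.1 in R 4.3.3 (lmFit, eBayes), with 1 mean per group over all 12 arrays and 8 residual degrees of freedom. Contrasts were KRGSF minus untreated at each age and their difference (interaction), with Benjamini-Hochberg adjustment over all probe sets. The code was tested on simulated data. No set test was run, and the 39 gene lists are described by counts and medians. The members and lists were chosen with earlier results of these data known.

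Named were the 10 highest and 10 lowest genes past 1.5-fold and unadjusted p under 0.05 without overlap of arrays (provisional symbols, small RNAs, receptors of smell, pseudogenes and immune receptor segments left out), genes past adjustment, genes the paper names, the 4 members with the largest statistic of each list and, for the interaction, 5 genes at each end. Genes outside this rule were chosen after their values were seen. Alternatives were the 6-month arrays alone, a block for the replicate number, the t-test named in the methods, quantile and cyclic loess normalization, a filter on the dimmer 50% of probe sets, 1 probe set per gene, trend and robust priors, arrayWeights, a threshold of 2-fold, and fits that drop each array. Leaving out 12-month arrays and the split of small nucleolar RNAs by class were added after seeing the data.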

Additional observations from a re-analysis of the deposited data

Results flagged for a closer look

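In 2 genes the effect of KRGSF differed between the ages by the test of the difference itself (limma interaction, adjusted over all probe sets). For Mir335, the log2 effect at 6 months minus that at 12 months was 2.82 (SE 0.31, adjusted p = 0.00516), and all 3 treated arrays lay above the untreated ones at 6 months and below them at 12 months. For Olfr706, it was -2.11 (SE 0.28, adjusted p = 0.0341), with all 3 treated arrays below the untreated ones at 6 months and above them at 12 months. Both were read by dim probe sets. With 3 arrays a group, single values were not tested for outliers within groups.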

How the results depend on the processing

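For KRGSF at 6 months, 0 probe sets passed adjustment under every alternative run with limma (1765 had an unadjusted p under 0.05) and by the methods' t-test. The counts past 1.5-fold and unadjusted p, 153 higher and 314 lower, were 59 and 107 by the methods' t-test, 60 and 96 with the dimmer 50% left out, 70 and 163 with 1 probe set per gene, and 6 and 25 at 2-fold. The filter and the choice of 1 probe set test fewer probe sets, and why the t-test calls fewer was not tested. Leaving out 1 array gave 215 to 330 higher and 213 to 799 lower. The count of interactions past adjustment, 2, was 0 with the filter on dim probe sets, which removes both genes, and 1 to 2 without 1 array. The adjusted p of Mir335 passed in every alternative that kept it, and that of Olfr706 rose to between 0.0921 and 0.194 in the fits that lost it. With the replicate number as a block, counts were 166 and 430, 0 past adjustment, and 2 interactions. Same-numbered 6-month arrays correlated at 0.233, 0.0712 and -0.0331 in their deviations. Deviations within groups of so few arrays are not independent, so these values cannot decide whether the numbers pair the samples. Of 292 values of the 22 named genes under alternatives, 0 reversed. Of 389 list medians, 327 kept their sign.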
